A study of Mus musculus with 3 samples.

Results

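Endothelial cells, which line the blood vessels, were examined in single-cell RNA profiles of the mouse prefrontal cortex. They were chosen by measured values of 12 genes, as the cells with at least 4 of the 6 genes Cldn5, Flt1, Pecam1, Ly6c1, Cdh5 and Esam above 0, at most 1 of the mural cell genes Kcnj8, Abcc9 and Higd1b above 0, and at most 1 of Aqp4, Pdgfra and Csf1r above 0. The rule found 824 of 14192 cells. Of these, 112 had at least 2 of the dividing cell genes Mki67, Top2a, Cenpf and Birc5 above 0 and are called dividing. The study gave mice of both sexes 1 exposure to the inhaled anaesthetic sevoflurane, near 3%, on postnatal day 6 and collected the tissue the same day. Droplet libraries were made on the 10x Genomics platform in 3 replicates, sev1-1, sev1-2 and sev1-3, called libraries 1, 2 and 3 here. The labels name no strain and no genotype, and every library came from exposed mice, so each comparison below is between groups of cells within exposed tissue and none measures a response to sevoflurane. The labels do not say that the libraries came from separate animals, so p-values measure only the spread between these libraries, which may be technical.

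Brain capillary endothelium forms the blood-brain barrier. Its cells are sealed to each other by tight junctions with claudin-5, take up little fluid by vesicles, and feed the brain through dedicated carriers for glucose, amino acids, monocarboxylates and lipids. Wnt signals from neural cells keep this programme on, flow of blood over the cells turns on the transcription factors Klf2 and Klf4, and in the growing postnatal cortex vessels extend by tip cells at the front while cells behind them divide and take on arterial, capillary or venous identity.

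Libraries 1, 2 and 3 held 312, 313 and 199 endothelial cells among 4775, 5134 and 4283 cells. The share was 6.53% in library 1 (5.85 to 7.27%), 6.10% in library 2 (5.46 to 6.79%) and 4.65% in library 3 (4.04 to 5.32%), where brackets hold exact 95% binomial limits that cover counting error only. The mean was 5.76% ± 0.988 (SD, n = 3 libraries), and library 3 was lowest, with an interval that did not reach those of libraries 1 and 2. The labels describe tissue frozen on dry ice and RNA taken with Trizol, which is no account of how single cells were made, so shares of cells may not be shares of the tissue and the part of the preparation in these shares and in early response genes was not tested.

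The 6 rule genes chose the cells, so their values are a description. Cldn5, the main tight junction claudin of the brain, was above 0 in 824 of 824 cells at 10925, 10922 and 12028 CPM (depth-corrected counts scaled to a common total per cell and averaged over cells) in libraries 1, 2 and 3. Flt1, a VEGF receptor, was found in 99.9% of cells, Esam, an adhesion molecule, in 99.8%, Pecam1 in 97.2%, Cdh5, the adherens junction cadherin, in 93.9%, and Ly6c1 in 90.05%. Flt1 was above 0 in 1.87% of cells gated as astrocytes, a share partly set by selection since that gate allowed at most 1 of the 6 rule genes. Ly6c1 varied more from cell to cell than Cldn5, with a coefficient of variation of 0.905 against 0.310. Few cells lay near the edge of the rule: 685 members had all 6 rule genes, 120 had 5 and 19 had 4, and 11 cells with 3 passed the exclusions but were outside. A further 114 cells had at least 4 rule genes and were excluded, 110 of them for mural cell genes alone.

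Markers that the rule did not use were also found. All 16 endothelial markers, rule genes included and among them Tie1, Tek, Kdr, Eng, Erg, Egfl7, Emcn and Robo4, were at 10 CPM or more. Of the lymphatic markers, Prox1, Lyve1 and Pdpn were each under 1 CPM, and the list, whose other gene is Flt4, summed to between 63.9 and 79.8 CPM. The 7 pericyte markers summed to between 37.2 and 161 CPM per library, 2 of them at 10 CPM or more, and in cells gated as pericytes to between 26450 and 29376 CPM, a contrast partly set by selection since the list holds Kcnj8, Abcc9 and Higd1b. Of the other 4, which no gate used, Rgs5 was at 117, 112 and 25.0 CPM, and Vtn, Pdgfrb and Notch3 averaged 9.68, 2.30 and 2.19 CPM, against 14320.5, 7210.1, 807 and 219 CPM in pericytes. Astrocyte markers were higher than the pericyte list: the 8 summed to between 289 and 341 CPM per library, 6 of them at 10 CPM or more. In cells gated as astrocytes they summed to between 12066 and 12792 CPM, partly set by selection since that gate used some of them. Microglia, neuroblast and oligodendrocyte precursor lists averaged 94.0, 89.1 and 70.6 CPM in endothelial cells. Suspected doublets made up 24 of the 824 cells, 5 of them dividing, and were kept. Libraries shared 90 cell barcodes; 6 endothelial cells carried one, and no barcode was endothelial in more than 1 library. Over the whole table corrected counts summed to between 4422 and 8135 per cell, and the median endothelial cell showed 2893, 2841 and 2837 genes by library. The depth before correction is unknown.

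Endothelial cells were compared with 3 other classes gated by fixed genes in the same libraries: 609 pericytes, the mural cells that wrap the same capillaries, 3742 astrocytes and 1746 microglia. Over all genes outside the gates 9515 were tested, with a threshold of an adjusted p of 0.05. The background of calls was high, since cell types differ in most genes: 67.1% of genes passed against pericytes, 74.9% against astrocytes and 71.4% against microglia. In single directions, 24.6% were higher and 42.4% lower than in pericytes, 31.6% and 43.2% than in astrocytes, and 38.4% and 33.0% than in microglia. Centred on the median gene, the higher share of called genes moved from 42.2% to 52.4% against astrocytes and from 53.8% to 43.1% against microglia. A gene that reached the 10 CPM filter only through its level in endothelial cells had to differ, so sizes are of more use here than counts.

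Klf2, the flow-responsive transcription factor that keeps vessels quiescent, marked these cells though the rule did not use it. It was at 3139, 3406 and 3917 CPM in libraries 1, 2 and 3, against 59.0 to 77.0 CPM in pericytes, 12.9 to 15.5 CPM in astrocytes and 70.4 to 92.7 CPM in microglia. Every endothelial value lay far above every other. It was above 0 in 98.2% of endothelial cells at a median of 2857 detected genes, and in 7.80% of astrocytes, a class that should lack it, at a median of 2756.5 detected genes. The log2 fold with 10 CPM added was 5.47 ± 0.108 (SE) against pericytes, 7.18 ± 0.108 against astrocytes and 5.25 ± 0.108 against microglia (limma adjusted p of 3.39e-16, 1.25e-17 and 3.67e-16). Its relative Klf4 was at 475, 448 and 603 CPM, and at most 16.4 CPM in any library of the other classes. Of 12 tested flow-responsive genes, 11 were higher than in pericytes, 10 than in astrocytes and 11 than in microglia, with medians of 2.75, 3.59 and 3.44 on the log2 scale, against medians of -0.15, -0.13 and 0.04 over all genes tested. Of the 12, 6 were under 10 CPM in pericytes, 6 in astrocytes and 6 in microglia. Timp3, an inhibitor of matrix proteases, was lower than in astrocytes, at 51.6 against 271 CPM.

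The promoters of Klf2 and Klf4 are shown because both genes were lowest in the tip gate, 1 of the vessel segments described below. Each is the 250 bases before the RefSeq gene start, from the GRCm38.p6 table, read 5′ to 3′ on the gene's strand, and capitals mark a match to the MEF2 motif, searched on both strands. Klf2 lies on chromosome 8 (GENCODE M21 gene 72319033 to 72321656, plus strand) and its stretch is chr8:72318812-72319061. Klf4 lies on chromosome 4 (55527143 to 55532466, minus strand) and its stretch is chr4:55532476-55532725.
Klf2: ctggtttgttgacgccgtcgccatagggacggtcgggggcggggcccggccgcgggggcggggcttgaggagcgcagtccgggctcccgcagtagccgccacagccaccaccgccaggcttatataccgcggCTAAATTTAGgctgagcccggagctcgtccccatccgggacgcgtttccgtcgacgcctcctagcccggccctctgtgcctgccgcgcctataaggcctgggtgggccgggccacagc
Klf4: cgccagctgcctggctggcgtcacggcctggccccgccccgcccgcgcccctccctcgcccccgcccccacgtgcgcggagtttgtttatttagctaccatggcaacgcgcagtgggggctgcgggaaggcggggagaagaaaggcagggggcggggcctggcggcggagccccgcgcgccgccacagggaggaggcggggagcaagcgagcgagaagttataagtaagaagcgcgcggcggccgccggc
The Klf2 stretch held 1 MEF2 match, CTAAATTTAG, which begins 118 bases before the gene start, and the Klf4 stretch held none. Of 32851 promoters of 300 bases in the table, 3.19% held a match.

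Genes of endothelial identity that the rule did not use separated the class throughout. All 28 pan-endothelial genes were higher than in each of the other classes, with median log2 folds of 3.93, 4.996 and 4.61 against pericytes, astrocytes and microglia. Of the 28, 15 were under 10 CPM in pericytes, 26 in astrocytes and 20 in microglia, so these counts were largely set by the filter. Kdr, the main VEGF receptor, was at 924, 949 and 1029 CPM and at most 10.9 CPM in any other class and library. Erg, the ETS factor that maintains endothelial identity, was at 178, 185 and 180 CPM against at most 1.71 CPM. Neither gene's values overlapped those of another class. Sox18, a vascular SoxF factor, and Adgrl4, an adhesion receptor of vessels, had log2 folds of 5.71 and 5.87 against pericytes.

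The carriers of the blood-brain barrier were the next group. Of 26 listed, 25 were tested, and 25 were higher than in pericytes, 24 than in astrocytes and 24 than in microglia, with medians of 4.58, 3.89 and 3.60; Slc38a3 against astrocytes and Slco2b1 against microglia were the exceptions. Of the 25, 8 were under 10 CPM in pericytes, 10 in astrocytes and 9 in microglia. Slc2a1, the glucose carrier GLUT1, was at 873, 866 and 967 CPM, and at most 58.9 CPM elsewhere. Slc16a1, the monocarboxylate carrier MCT1, was at 2158, 2057 and 2127 CPM and gave the largest log2 fold against pericytes of any gene at 50 CPM or more, 6.94 ± 0.103. Both held a narrow range over the 3 libraries. Mfsd2a, the lysophospholipid carrier that also restrains vesicle transport, was at 1211, 1105 and 1142 CPM and was found in 98.3% of cells, against 23.0% of astrocytes. Slco1a4, an organic anion carrier, was at 667, 661 and 743 CPM but in 64.9% of cells, against 1.18% of astrocytes, with a coefficient of variation over cells of 1.17 against 0.523 for Mfsd2a. Slc40a1, the iron exporter ferroportin, was at 925, 886 and 911 CPM, and microglia had 62.8 to 75.4 CPM. Vwa1, a matrix protein, was among the leading genes against pericytes, at 2162, 2035 and 2228 CPM.

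**Figure D1:**
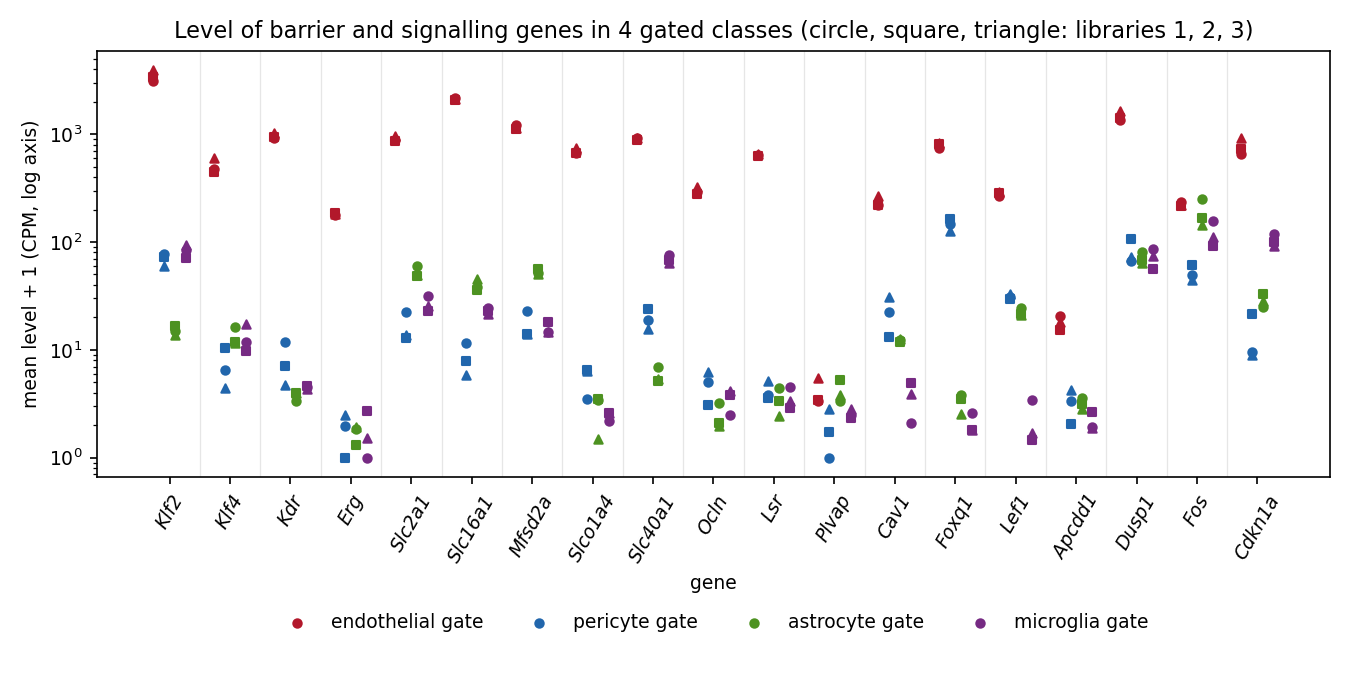
Mean level of 19 genes in CPM of corrected counts, with 1 added, on a log axis, in the endothelial, pericyte, astrocyte and microglia gates; each point is 1 library. Endothelial points lie above all others for most genes, Plvap and Apcdd1 are low in every class, and Fos overlaps with the astrocyte gate.

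Junction genes followed, with exceptions. Of 12 tested, 11 were higher than in pericytes, 8 than in astrocytes and 11 than in microglia. In these classes 4, 4 and 6 of the 12 were under 10 CPM. Lsr, a protein of junctions where 3 cells meet, was at 639, 632 and 655 CPM and at most 4.09 CPM elsewhere. Ocln, the tight junction protein occludin, was at 287, 279 and 321 CPM and at most 5.24 CPM elsewhere. Magi1, a junction scaffold named here after its value was seen, was lower than in astrocytes, at 18.3 against 73.6 CPM. Cldn1, Cldn3 and Cldn12 did not reach the filter.

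Plvap, the diaphragm protein of fenestrae and of leaky vessels, was at 2.39, 2.41 and 4.43 CPM, was found in 1.82% of cells and did not reach the filter; its level in astrocytes was 2.35 to 4.26 CPM. Of the 5 tested caveolae genes, 4 were higher than in pericytes, 4 than in astrocytes and 5 than in microglia. In these classes 1, 2 and 4 of the 5 were under 10 CPM. Cav1, which builds caveolae, was at 218, 219 and 266 CPM. Cavin2 gave log2 folds of 4.40, 4.36 and 4.48 against the 3 classes, and Cavin3 was lower than in astrocytes, at 114 against 188 CPM.

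Wnt signalling genes were mostly higher: 11 of 15 tested against pericytes, 12 against astrocytes and 14 against microglia. Of the 15, 3 were under 10 CPM in pericytes, 6 in astrocytes and 13 in microglia, so the count against microglia was largely set by the filter. Foxq1, a forkhead factor, was at 737, 803 and 825 CPM, with 126 to 161 CPM in pericytes and at most 2.81 CPM in the other classes. Lef1, a nuclear effector of Wnt signals, was at 268, 283 and 290 CPM against 28.6 to 31.7 CPM in pericytes. Axin2, a general Wnt target, went the other way and was lower than in pericytes, at 19.5 against 81.4 CPM, and than in astrocytes, at 34.2 CPM. Apcdd1 and Reck did not reach the filter.

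Signalling and matrix genes placed the cells against their neighbours. Of 31 genes of VEGF, Tie, Notch and BMP signalling, 24, 24 and 26 were higher than in pericytes, astrocytes and microglia. In these classes 10, 16 and 18 of the 31 were under 10 CPM. Aplnr, the receptor of apelin, was at 381, 389 and 334 CPM and at most 2.86 CPM elsewhere. The ligands Vegfa and Angpt1 were both lower than in each class: Vegfa was at 2.33 CPM against 131 CPM in astrocytes, and Angpt1, the Tie2 ligand, at 1.86 CPM against 38.3 CPM in pericytes. For basement membrane and integrins the direction depended on the class. Of 18 tested, 6 were higher and 10 lower than in pericytes, with Col4a1 at 709 against 1824 CPM and Itga1 at 280 against 1472 CPM, and 15 were higher than in astrocytes and 16 than in microglia. Of the 18, none was under 10 CPM in pericytes, 3 were in astrocytes and 11 in microglia. Fn1, fibronectin, was at 845, 864 and 989 CPM and was higher than in all 3 classes.

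Immediate early genes, which respond to stimulation and to handling of tissue, were high in this class. Of 21 tested, 17, 18 and 17 were higher than in pericytes, astrocytes and microglia. In these classes 4, 5 and 3 of the 21 were under 10 CPM. Dusp1 was at 1356, 1415 and 1632 CPM and between 54.6 and 105 CPM elsewhere, while Fos was at 234, 216 and 218 CPM and 144 to 248 CPM in astrocytes, where its values overlapped and it did not pass. Cdkn1a, the cell cycle inhibitor p21, was at 649, 726 and 914 CPM and at most 117 CPM elsewhere, with a log2 fold of 5.14 ± 0.159 against pericytes. Of 13 tested leukocyte adhesion and inflammatory genes, 9 were higher and 2 lower than in pericytes. Against astrocytes 11 were higher and 1 lower, and against microglia 8 and 3. In pericytes, astrocytes and microglia 4, 5 and 2 of the 13 were under 10 CPM. Icam2, an adhesion molecule of resting endothelium, was at 458, 425 and 497 CPM, and Nfkbia, an inhibitor of NF-kB, averaged 1355 CPM against 88.3, 163 and 196 CPM in pericytes, astrocytes and microglia. Sele, Selp, Ccl2, Cxcl10 and Il6 did not reach the filter. Vcam1, which binds leukocytes, was at 15.4, 13.4 and 32.9 CPM against 612 to 636 CPM in astrocytes.

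Hemoglobin genes also had higher means than in each class, and those means rested on few cells. Hbb-bs was at 8117, 8195 and 7357 CPM, yet its median over endothelial cells was 152 CPM. Cells with over 1% hemoglobin numbered 71, or 8.62%. Without such cells in any class, the log2 fold of Hba-a2 turned from 2.19 to -0.85 against pericytes. It turned from 2.24 to -0.70 against astrocytes and from 1.94 to -0.95 against microglia. Hemoglobin genes also chose the cells left out, so these changes were partly set by the cut.

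Dividing cells numbered 46, 50 and 16 in libraries 1, 2 and 3. They were 14.7% (exact 95% limits 11 to 19.2%), 15.97% (12.1 to 20.5%) and 8.04% (4.67 to 12.7%) of the endothelial cells there. Library 3 was lowest here too, though its interval overlapped the others. The mean of 12.9% ± 4.27 (SD, n = 3 libraries) stood beside 11.5% ± 1.43 in pericytes, 6.82% ± 0.942 in astrocytes and 28.9% ± 5.55 in microglia, whose values in each library were all above the endothelial ones. These shares were taken at unequal depth: median corrected counts were 6694 in endothelial cells, 5408 in pericytes, 6241 in astrocytes and 5159.5 in microglia. When each cell was thinned to 4400 corrected counts, an alternative chosen after seeing the data, the endothelial share was 11.6%. That value is not to be set against the unthinned shares of the other classes. Of 23 tested G2 and mitosis genes, all 23 were lower in endothelial cells than in microglia, 13 were lower and 0 higher than in pericytes, and 1 was lower and 15 higher than in astrocytes. Of 22 tested DNA replication genes, all 22 were lower than in microglia, 12 were lower and 0 higher than in pericytes, and 6 were lower and 5 higher than in astrocytes. Of the dividing cells 68 had all 4 genes, 29 had 3 and 15 had 2, and another 49 cells had 1 and were counted as non-dividing.

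**Figure D2:**
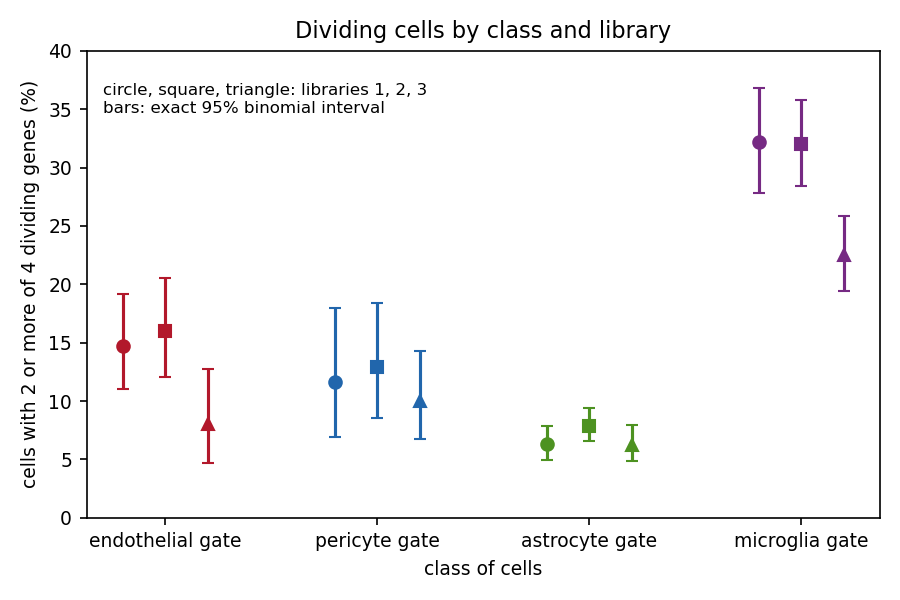
Share of cells with at least 2 of the 4 dividing genes, in percent, for each gated class; each point is 1 library and bars are exact 95% binomial intervals. Endothelial shares lie between 8.04% and 15.97%, and microglia lie highest in each library.

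Dividing and non-dividing endothelial cells were compared over 8187 genes, of which 24.7% passed: 11.7% were higher and 13.0% lower in dividing cells. Centred on the median gene the counts were 1089 and 735 in place of 958 and 1065. The fit had 2 residual degrees of freedom and drew most of its spread from the other genes. Library 3 gave 16 dividing cells, the fewest, and its means are the least precise. Median detected genes were 2867.5 and 2853.5.

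Genes of the cell cycle that the gate did not use rose with those it used. All 23 tested G2 and mitosis genes were higher, but 19 of them were under 10 CPM in non-dividing cells and reached the filter through the dividing cells alone, so they had to differ. The other 4 were Cdk1, the mitotic kinase, Cks2, its partner, Cenpa, the centromere histone, and Smc4, a condensin subunit, which rose by 3.40, 4.43, 4.27 and 2.48. Ube2c, which marks mitotic proteins for breakdown, was 1 of the 19 that had to differ. It was at 493, 528 and 593 CPM in dividing cells and 6.56 to 8.08 CPM in the others, a log2 fold of 4.98 ± 0.151. Of 23 tested DNA replication genes 22 were higher, and 12 of the 23 had reached the filter through the dividing cells alone. Rrm2, which makes deoxynucleotides and was 1 of these 12, was at 238, 298 and 186 CPM against at most 6.54 CPM. The exception was Mcm6, a subunit of the replicative helicase, at 74.9, 92.3 and 37.5 CPM in dividing and 103, 94.5 and 94.0 CPM in non-dividing cells, a difference of -0.52 ± 0.195 that did not pass (adjusted p = 0.0645). It passed as lower without library 2, at -0.77, and with cells that carried genes of other lineages left out, at -0.53. The other measured subunits, Mcm2, Mcm3, Mcm4, Mcm5 and Mcm7, all rose, by 1.22 to 2.36. Of these, Mcm5 and Mcm7 were under 10 CPM in non-dividing cells. In the whole class Mcm6 was 1 of 5 DNA replication genes higher than in astrocytes, at 98.7, 94.2 and 89.5 against 15.1 to 18.7 CPM, with a log2 fold of 1.98 where the others had 0.32 to 0.50.

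Among brakes on the cycle the directions split. Cdkn2c, the inhibitor p18, was at 93.5, 130 and 166 CPM in dividing cells and at most 8.36 CPM in the others, and Cdkn2d rose by 1.11. Cdkn1c, the inhibitor p57, was at 83, 55.7 and 63.7 CPM against 126, 103 and 198 CPM, and fell by 0.94 ± 0.175. Cdkn1a, Ccnd1 and Ccnd2, of which the cyclins drive cells into the cycle, were lower too, with Cdkn1a at 573 against 789 CPM. In all, 2 of 10 tested genes of this list rose and 6 fell. Cdkn2c was the 1 of the 10 under 10 CPM in non-dividing cells. It reached the filter through the dividing cells alone, so it had to differ.

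Carriers of the barrier were lower in dividing cells. Of 26 tested, 14 fell and 1 rose, with a median of -0.27 against -0.13 over all genes tested. The falls numbered 9 when centred, 10 with no replicate block and 8 without library 2. Slco1a4 was at 294, 143 and 204 CPM in dividing and 731, 760 and 790 CPM in non-dividing cells, a fall of -1.84 ± 0.137 (limma adjusted p of 1.61e-07), with no overlap. Insr, the insulin receptor, was at 70.1, 78.7 and 72.7 CPM against 194, 175 and 184 CPM. Mfsd2a was at 866, 688 and 532 CPM against 1271, 1185 and 1195 CPM, and Slc7a5, the large amino acid carrier, at 1221, 1146 and 1226 CPM against 1881, 1754 and 1886 CPM. None of these groups overlapped. The gene that rose was Slc7a1, the carrier of cationic amino acids, at 897, 985 and 1065 CPM against 785, 744 and 826 CPM. Junction genes were little affected: of 13 tested, Ocln fell by 0.54 and Lsr rose by 0.26.

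Endothelial identity itself held a smaller and mixed difference. Of 28 pan-endothelial genes 3 rose and 8 fell. Their median of -0.11 was near the -0.13 over all genes tested. Kdr, at 997 against 962 CPM, did not pass (0.05 ± 0.0576). Myct1, Mmrn2 and Sox18 gave the largest falls, of -0.68, -0.59 and -0.44. Mmrn2 did not pass without library 1, at -0.29, with no replicate block or with at least 3 of the 4 dividing genes, and Sox18 did not pass with no replicate block (adjusted p = 0.0925). The matrix protein Sparcl1 fell further, from 1688, 1546 and 1587 CPM in non-dividing to 640, 693 and 489 CPM in dividing cells, and Fn1 rose by 0.56.

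Among segment genes, venous genes that passed were higher in dividing cells, and most arterial and all tip cell genes that passed were lower. Of 9 venous genes outside the gates 4 rose and none fell, with 3 rising when no replicate block was used. Icam1, an adhesion molecule for leukocytes, was at 362, 404 and 452 CPM in dividing and 114, 102 and 145 CPM in non-dividing cells, a log2 fold of 1.68 ± 0.104. Aplnr was at 616, 711 and 581 CPM against 341, 327 and 312 CPM, and Flrt2 at 57.6, 64.1 and 145 CPM against 36.7, 25.1 and 49.0 CPM. None of these 3 genes overlapped between the groups, but they were named for large folds, and the share of all genes without overlap was not counted. Flrt2 did not pass with no replicate block (limma adjusted p = 0.0527). Of 15 arterial genes 7 fell, among them Cxcl12, a chemokine, at 214, 188 and 286 CPM against 650, 633 and 957 CPM, and Hey1, a Notch target, at 84.0, 49.7 and 65.2 CPM against 173, 162 and 219 CPM. Of 16 tip cell genes none rose and 6 fell, led by Cxcr4, the receptor of Cxcl12, at 15.9, 23.6 and 9.53 CPM against 126, 128 and 99.6 CPM.

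The 2 arterial genes that rose, Eln and Mgp, did so through 1 or 2 libraries. Both averaged under 10 CPM in non-dividing cells and reached the filter through the dividing cells alone, so their means had to be higher there. Eln, elastin, was at 3.28, 11.9 and 3027 CPM in the dividing cells of libraries 1, 2 and 3, and Mgp, a matrix inhibitor of mineral, at 0, 109 and 544 CPM. The summed level of 6 fibroblast markers in dividing cells was 51.4, 150 and 411 CPM in the same libraries, against 9.41 to 14 CPM in non-dividing cells. The pericyte list was at 39.1, 468 and 18.7 CPM. Their part in these values was not tested. Eln no longer passed in 5 alternatives, among them suspected doublets removed and no replicate block, and Mgp did not pass in 5: without library 3, without cells that carried genes of other lineages, with at least 5 of the 6 rule genes, with a pseudocount of 1 CPM and with no replicate block.

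Notch, leukocyte and early response genes completed the comparison. Of 27 tested genes of VEGF, Tie, Notch and BMP signalling 2 rose and 10 fell, with Dll4, the Notch ligand of tip and arterial cells, at 63.3, 55.8 and 65.2 CPM against 157, 141 and 129 CPM. Of 15 leukocyte adhesion and inflammatory genes 6 rose and 1 fell, and 3 rose with no replicate block. Cxcl1, a neutrophil chemokine, was at 73.7, 105 and 99.0 CPM against 18, 28.5 and 26.9 CPM. Of 20 immediate early genes 2 rose and 10 fell, which became 4 and 6 when centred and 5 falls with no replicate block. Klf2 rose slightly, at 3803, 3654 and 4382 CPM against 3024, 3358 and 3877 CPM, by 0.21 ± 0.0464, which did not pass with no replicate block (adjusted p = 0.141), while Klf4 did not pass. Of 17 Wnt genes 1 rose and 6 fell, and 1 fell without library 1. Hemoglobin genes were lower, with 5 of 5 falling, and 3 falling without cells over 1% hemoglobin.

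**Figure D3:**
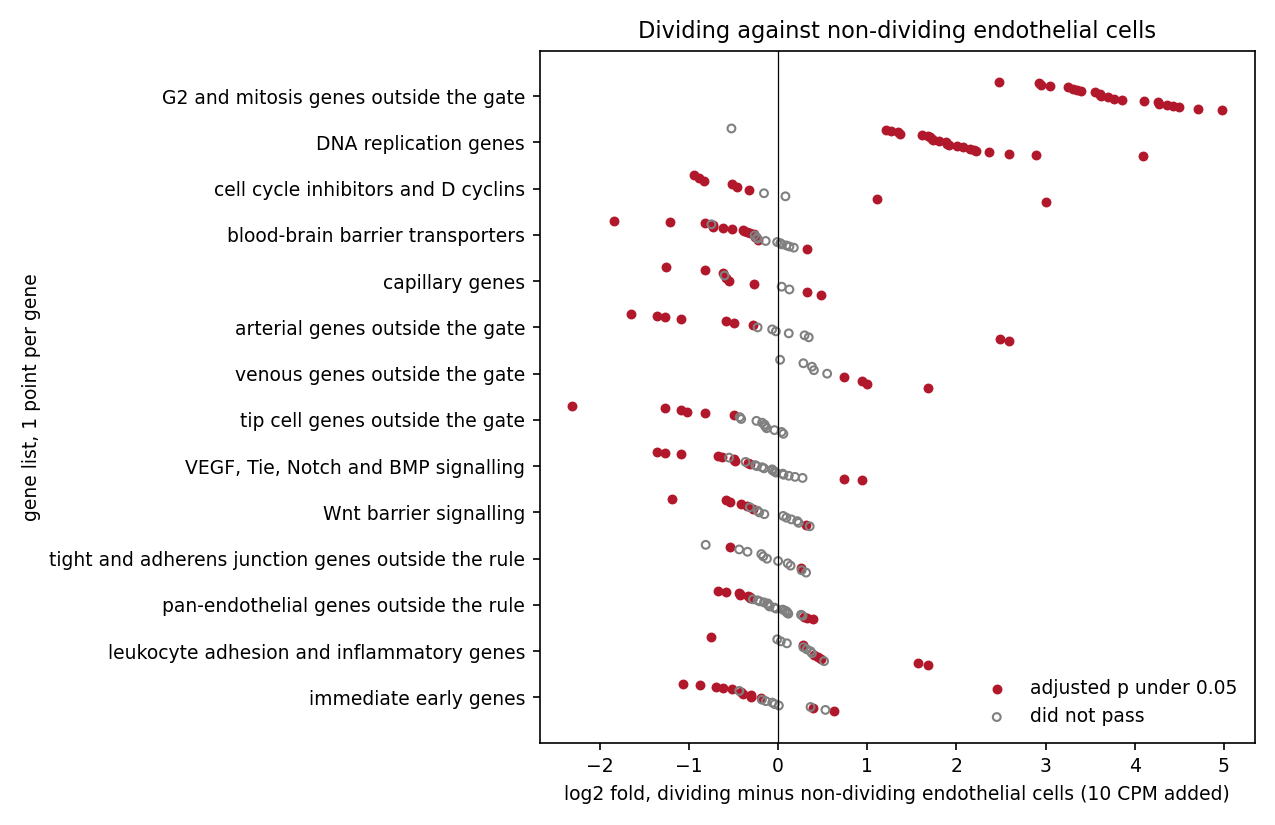
Log2 fold of each tested gene in 14 lists, dividing minus non-dividing endothelial cells, with 10 CPM added; filled points passed an adjusted p of 0.05 and open points did not. The mitosis and DNA replication lists lie to the right except Mcm6, barrier carriers and tip cell genes lie mostly to the left, and venous genes lie at or right of 0.

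Non-dividing cells were then split by fixed segment genes. The tip gate (at least 2 of Apln, Esm1, Kcne3, Angpt2 and Plaur) held 237 cells, the arterial gate (Gkn3, Bmx, Sema3g, Efnb2 and Gja4) 65, the venous gate (Nr2f2, Vwf, Slc38a5, Ackr1 and Ephb4) 287, and 123 cells remained. Their shares of non-dividing cells were 33.0% ± 2.12, 9.38% ± 2.40, 40.4% ± 1.51 and 17.2% ± 2.45 (SD, n = 3 libraries). Tip cells were assigned first. The arterial gate then asked for at least 2 of its genes and more of them than of the venous gate genes, and the venous gate for the reverse. Cells with equal numbers fell among the remaining cells, which can therefore hold arterial or venous gate genes. The gate genes are left out below. Venous gate genes such as Slc38a5 also occur in capillaries, so that gate is not a count of veins.

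Arterial-gate and venous-gate cells were compared over 8275 genes. Of these 12.5% passed, 5.5% higher and 7.0% lower in the arterial gate. Arterial genes that the gate had not used rose together: 15 of 16 tested were higher and none lower. Of the 16, 3 were under 10 CPM in the venous gate, and the filter took the mean over all 4 segments. Vegfc, a growth factor, was at 323, 287 and 607 CPM in the arterial gate and 20.3, 11.3 and 15.2 CPM in the venous gate, a log2 fold of 3.96 ± 0.295 (limma adjusted p of 2.94e-09). Fbln5, which builds elastic fibres, was at 462, 496 and 844 CPM against 16.8, 28.8 and 24.3 CPM. Library 3 was highest in the arterial gate for both, and neither overlapped. Mgp was the exception, at 0, 11.5 and 109 CPM, and did not pass (adjusted p = 0.0805), though it did without library 1, at 2.25. Mcm6 was the DNA replication gene, of 11 tested, that passed, at 34.3 against 99.3 CPM.

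Venous and capillary genes went the other way. Of 8 venous genes 5 were lower and 1 higher in the arterial gate. Aplnr was at 82.7, 59.0 and 28.4 CPM against 405, 443 and 416 CPM, a log2 difference of -2.78 ± 0.184. The gene that was higher was Vcam1, at 95.3, 57.4 and 157 CPM against 14.3, 2.84 and 14.4 CPM. Of 11 capillary genes 6 were lower, led by Car4 at 181, 222 and 49.0 CPM against 1304, 1434 and 1385 CPM, and 1, the taurine carrier Slc6a6, was higher at 1555, 1458 and 1801 CPM against 559, 453 and 772 CPM. No group overlapped for these 4 genes.

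Barrier carriers divided between the segments. Of 26 tested, 4 were higher and 10 lower in the arterial gate. Slco1a4 was at 1361, 1657 and 1505 CPM in the arterial and 731, 560 and 647 CPM in the venous gate. Slc7a5 was at 944, 943 and 668 CPM against 2096, 1876 and 2042 CPM, and Tfrc, the transferrin receptor, at 662, 686 and 563 CPM against 1410, 1248 and 1362 CPM. Mfsd2a, at 1224 against 1264 CPM, did not pass. The difference in Mfsd2a was -0.05 ± 0.0790. Caveolae genes were higher in 4 of 5 cases, with Cavin2 at 478 against 208 CPM.

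Of 27 tested genes of VEGF, Tie, Notch and BMP signalling 15 were higher and 4 lower. Unc5b, a netrin receptor, was at 459 against 85.0 CPM, and Smad6, an inhibitor of BMP signals, at 158 against 27.8 CPM. Cdkn1c was at 668, 398 and 839 CPM against 98.0, 61.3 and 121 CPM. Of 12 flow-responsive genes 7 were higher, and 4 were without library 2. Klf4 was at 948, 846 and 1141 CPM against 545, 388 and 606 CPM, a log2 fold of 0.93 ± 0.127 with no overlap. Klf2 was at 4089, 4828 and 4690 CPM against 3533, 3479 and 4200 CPM, where the groups overlapped; its log2 fold of 0.28 ± 0.0724 passed (adjusted p = 0.0106) but did not without library 2 (adjusted p = 0.285), with no replicate block (0.116), centred (0.0909) or with no filter (0.0652). Leaving out library 2 or 3 lowered the number of higher genes from 455 to 283 or 292 and of lower genes from 579 to 363 or 348. Red cell markers summed to between 12843 and 19253 CPM in the arterial and between 5539 and 13358 CPM in the venous gate, and all 5 were called higher; none was without cells over 1% hemoglobin, and in that alternative 15 of 16 arterial genes were higher.

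Tip-gate cells differed less from the remaining cells: 4.59% of 8275 genes passed, 2.67% higher and 1.92% lower. Each library counts here, since the higher genes fell from 221 to 128, 90 and 127 without library 1, 2 or 3, and the lower genes from 159 to 109, 81 and 97. Of 16 tip cell genes outside the gate 10 were higher and 1 lower, and 5 and 6 were higher without library 2 or 3. Trp53i11 was at 397, 305 and 395 CPM in the tip gate and 49.1, 36.6 and 18 CPM in the remaining cells, a log2 fold of 3.13 ± 0.287 (limma adjusted p of 1.72e-07). Lamb1, a laminin chain of the basement membrane, was at 184, 137 and 181 CPM against 64.5, 31.7 and 24.6 CPM. Neither overlapped. The gene that was lower was Unc5b, at 68.9 against 147 CPM, and Dll4, at 163 against 134 CPM, did not pass. Of 19 basement membrane and integrin genes 8 were higher and none lower, and 4 were higher without library 2.

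Arterial genes were low in the tip gate, with 7 of 16 lower and none higher. Cxcl12 was at 206, 166 and 260 CPM against 946, 1480 and 1654 CPM in the remaining cells. Outside the arterial list, Slc6a6, a carrier on the capillary list, was at 95.7, 93.7 and 284 CPM against 673, 700 and 1022 CPM. Of the 11 capillary genes tested, 1 was lower and 0 higher. Cdkn1c, from the list of cell cycle inhibitors and D cyclins, was at 36.0, 33.3 and 32.4 CPM against 155, 180 and 250 CPM. Of the 9 genes of that list tested, 4 were lower and 1 higher. All 3 genes were thus lower in every library, with no overlap. Targets and inhibitors of BMP signals, Id1, Id2, Id3, Smad6 and Smad7, were lower, with Smad6 at 16.1 against 77.4 CPM. Of 27 genes of the VEGF, Tie, Notch and BMP list 9 were lower and 5 higher, and 1, 1 and 2 were higher without library 1, 2 or 3.

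Klf2 and Klf4, whose promoters are printed above, were both lowest in the tip gate. Klf2 was at 2152, 2597 and 2829 CPM there and at 3186, 3771 and 4444 CPM in the remaining cells, a difference of -0.58 ± 0.0724 (limma adjusted p of 1.20e-05), with no overlap. Klf4 was at 299, 345 and 328 CPM against 498, 616 and 757 CPM, a difference of -0.91 ± 0.127. Klf6, from the same list, went the other way at 958 against 691 CPM. Over the 4 segments the mean of Klf2 ran from 2526 CPM in the tip gate to 3737 CPM in the venous gate, 3800 CPM in the remaining cells and 4536 CPM in the arterial gate, and the ranges of the venous, remaining and arterial groups overlapped. Mfsd2a, at 1116 against 1310 CPM, did not pass.

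**Figure D4:**
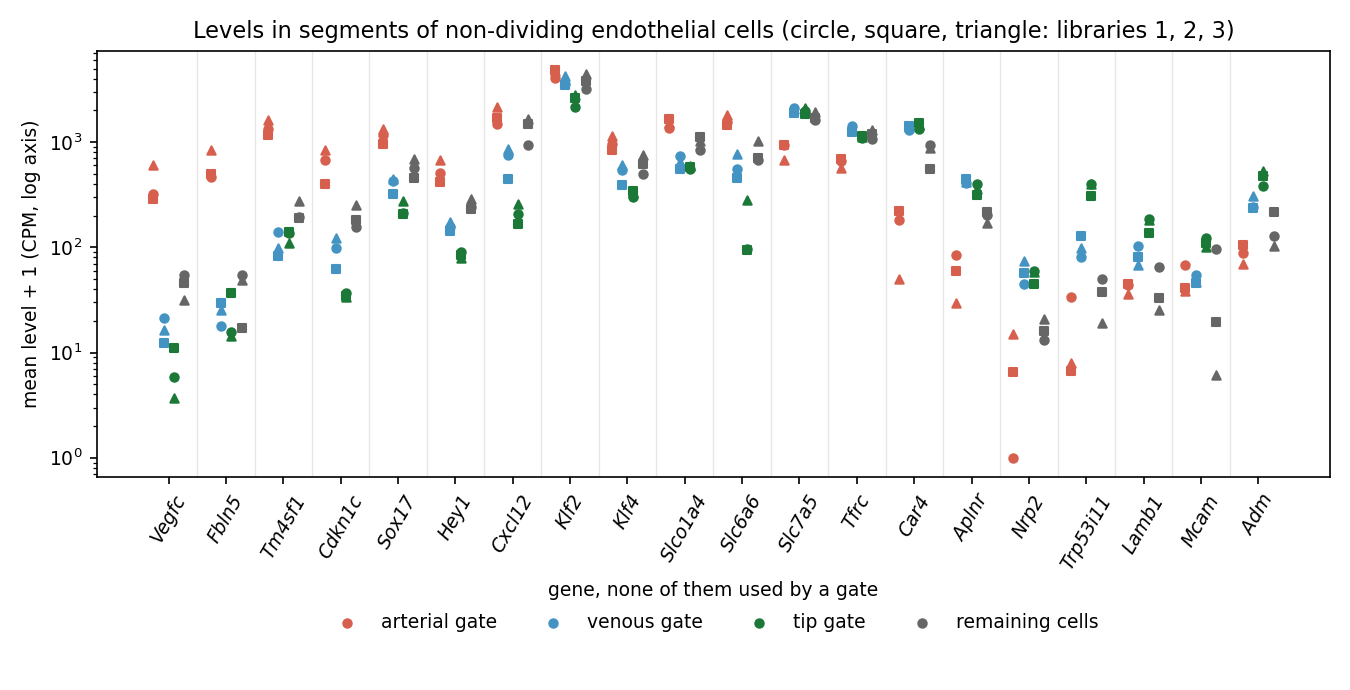
Mean level of 20 genes in CPM of corrected counts, with 1 added, on a log axis, in the arterial, venous and tip gates and the remaining non-dividing endothelial cells; each point is 1 library. Vegfc, Fbln5 and Tm4sf1 are highest in the arterial gate, Car4 and Aplnr lowest there, and Klf2 and Klf4 are lowest in the tip gate.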

How the data were processed

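Single-cell RNA was measured in 3 libraries of exposed prefrontal cortex. The build mm10 and the tools CASAVA (1.8), Seurat and Cell Ranger come per the submitters' processing notes. The deposited values are natural log units, ln(1 + a whole number): undoing the log gave whole numbers, to 1e-06, for each of the 34958786 non-zero entries. They are read as counts whose depth the authors corrected in a way the sources used here do not give, so no count model was fitted and depth before correction is unknown. The authors' filters are not stated.

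Corrected counts were scaled to CPM per cell and averaged over cells by class and library. limma 3.58.1 (R 4.3.3) fitted log2(mean + 10 CPM) with a trend and library as a block for genes averaging 10 CPM or more, since all classes come from the same 3 libraries; adjusted p is Benjamini-Hochberg over all genes tested. The added 10 CPM draws folds of weak genes toward 0. The pericyte, astrocyte and microglia gates asked for at least 2 of Kcnj8, Abcc9 and Higd1b, at least 4 of Aqp4, Gja1, Slc1a2, Slc4a4, Ntsr2 and Cldn10, and at least 4 of Csf1r, P2ry12, Tmem119, Cx3cr1, Siglech and Fcrls, with at most 1 endothelial rule gene and at most 1 of the other exclusion genes. Scripts were tested on simulated data. Suspected doublets (Scrublet in scanpy 1.11.5; 120, 78 and 89 cells) were kept and removed as an alternative.

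The cells, lists and gates were chosen with earlier results of these data known. Genes were named by rule: from each list the 3 largest called log2 folds, the 10 largest in each direction at 50 CPM or more, rule genes, Klf2 and list genes reported as not passing; a few others were named after their values were seen. Statements that groups did not overlap describe only the named genes, many of them named for large folds. The share of all genes without overlap was not counted. Promoters are from RefSeq (GRCm38.p6). Intervals are exact (Clopper-Pearson).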

Additional observations from a re-analysis of the deposited data

How the results depend on the processing

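Alternatives were another pseudocount, no filter, no replicate block, centring, other cell filters and gates, and leaving out each library. With no replicate block, 346 named results kept call and direction and 13 lost the call. Without library 1, 2 or 3, 17, 25 and 15 lost it; a fit of dividing cells without library 1 or 2 has 1 residual degree of freedom and rests wholly on the pooled spread. Genes lower than in astrocytes rose from 4113 to 6294 with no filter, where more genes are tested. Leaving out 1 library gave 678 to 1087 genes lower in dividing cells, 283 to 314 higher and 348 to 424 lower in the arterial gate, and 90 to 128 higher and 81 to 109 lower in the tip gate. Without cells over 1% hemoglobin 10 results changed direction: Hba-a1, Hba-a2 and Hbb-bt at -0.75, -0.85 and -0.57 against pericytes and -0.57, -0.70 and -0.68 against astrocytes, Hba-a2 and Hbb-bt at -0.95 and -0.90 against microglia, and Hbb-bs and Hbb-bt at -0.18 and -0.40 in the arterial gate; the cause was not tested. The hemoglobin cut uses these same genes, so the changes were partly set by it. Cells with genes of other lineages were left out as an alternative chosen after seeing the data, which took the call from Mgp and gave one to Mcm6 in dividing cells. Depth before correction is unknown, so limits set by depth cannot be given.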
